A study of Mus musculus with 35 samples.

Results

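The genes described here are 34 lysosomal genes of the mouse, chosen by name for their role in the lysosome, out of 54119 genes summed from the deposited transcripts. They are 6 cathepsins, 10 glycosidases, 2 sulfatases of glycosaminoglycan breakdown, 6 hydrolases of lipids and other substrates, 3 proteins of lipid presentation and sterol export, 5 proteins of the lysosomal membrane and 2 transcription factors. All 34 were detected and all 34 passed the filter on low counts in every comparison. RNA came from cells of male C57BL/6JRj mice that received a high-fat high-sugar diet (HFHS, 58% in the submitters' design text) or standard chow (SC) for 4 months from 8 to 9 weeks of age. Hypothalamus, hippocampus and a part of the cortex were taken, tissue of 2 animals was pooled for each replicate, and cells were held on magnetic columns by an antibody to ACSA2, the astrocyte surface antigen encoded by Atp1b2. The groups were hypothalamus HFHS (n = 5) and SC (n = 6), hippocampus HFHS (n = 7) and SC (n = 5), and cortex HFHS (n = 6) and SC (n = 6). MS columns were used for hypothalamus and hippocampus and LS columns for cortex, so that column type cannot be told apart from cortex. P-values measure the spread between pools.

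Lysosomes are acidic organelles in which hydrolases take apart proteins, glycans, lipids and nucleic acids delivered by endocytosis, phagocytosis and autophagy. A proton pump, the V-ATPase, keeps the lumen acidic, and most soluble enzymes reach it by way of mannose 6-phosphate receptors. The transcription factors TFEB and TFE3 bind E-box motifs in the promoters of many lysosomal genes and are held in the cytoplasm by mTORC1 when nutrients are plentiful. In the brain, inherited loss of many of these enzymes in humans gives storage diseases with neurological signs, and astrocytes and microglia both carry abundant lysosomes.

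The libraries held between 47578560 and 65982495 estimated reads. The sparsest member, Gla, had 31 to 532 reads per library and Sgsh 84 to 1036. Levels below are scaled TPM, that is, the deposited TPM values (transcript shares corrected for length) summed per gene and divided by a TMM factor of the library. These factors lay between 0.376 (cortex SC 6) and 1.28 (hypothalamus SC 1), with cortex HFHS 6 second lowest at 0.511. The summed level of 12 astrocyte markers was 2767 to 12636 in hypothalamus HFHS, 1837 to 3324 in hypothalamus SC, 1019 to 8160 in hippocampus HFHS, 1183 to 7600 in hippocampus SC, 10768 to 29750 in cortex HFHS and 11507 to 22956 in cortex SC. The summed level of 9 oligodendrocyte markers, 14089 to 96896 over all groups, was above that of the astrocyte markers in every library but cortex HFHS 6, cortex SC 2 and cortex SC 6. No astrocyte marker was at 0 in any library, and neither was any microglia, oligodendrocyte, precursor, endothelial, mural, ependymal or neuron marker. Ependymal markers (6 genes) summed to 2844 to 5951 in hypothalamus and 84.1 to 959 in cortex, and microglia markers (13 genes) to 123 to 2180 over all groups. Choroid plexus markers (5 genes) summed to 3804 to 27957 in hippocampus HFHS (median 9880) and 121 to 29418 in hippocampus SC (median 12944). The astrocyte medians there were 2310 and 1972. Choroid plexus sums were 70.9 to 4096 in hypothalamus HFHS, 54.5 to 835 in hypothalamus SC, 27.5 to 3136 in cortex HFHS and 295 to 4447 in cortex SC. Cortex SC 6, cortex HFHS 6 and hypothalamus SC 6 had the shortest mean transcript lengths, 1922, 2179 and 2483 bases.

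Psap was the most abundant member, at a mean of 1007 scaled TPM over the 35 libraries, followed by Lamp1 at 786, Ctsb at 741 and Ctsd at 736. These 4 were the members above 500. A total of 14 members lay at or above 100 scaled TPM and 32 at or above 10, with Sgsh at 3.52 and Gla at 1.84 below that. The steadiest member was Hexa, the alpha subunit of beta-hexosaminidase, which spanned 1.78-fold between its lowest and highest library, followed by Ppt1 with 2.14-fold. Among the 14 abundant members Ctss and Lamp1 varied most, with 23.3-fold and 11.2-fold between lowest and highest.

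**Figure D1:**
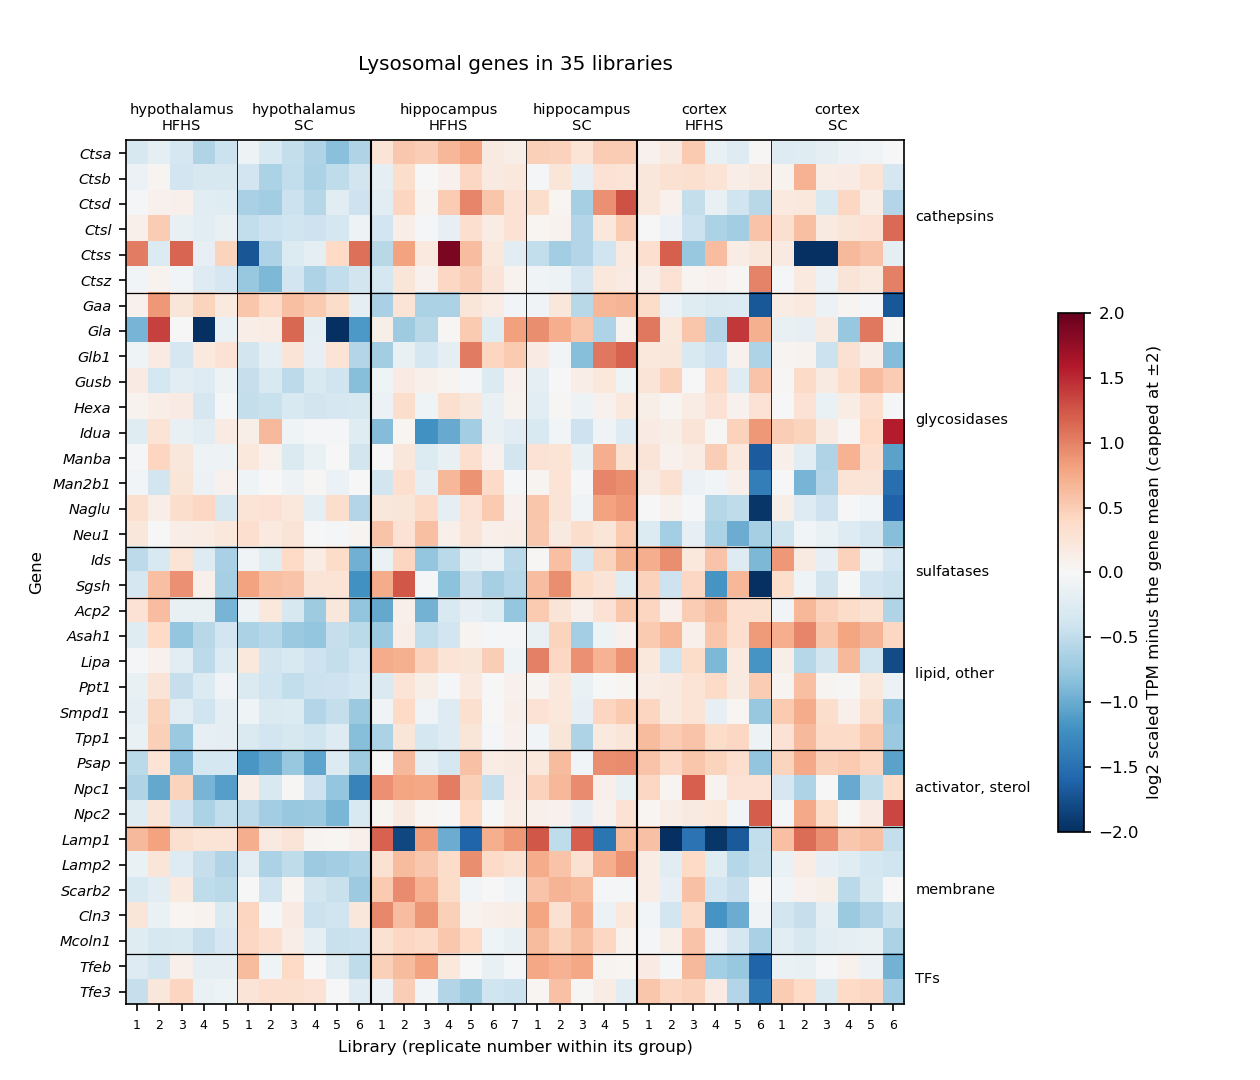
Each cell gives the log2 scaled TPM of a lysosomal gene (rows, by role) in a library (columns, by region and diet) minus the gene's mean over the 35 libraries, capped at 2 in either direction. Lamp1 alternates between high and low libraries in hippocampus and cortex, and most cathepsins and lipid hydrolases are pale blue in hypothalamus SC.

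Regions were compared within each diet in 1 edgeR quasi-likelihood model of all 6 groups, with Benjamini-Hochberg adjustment over 21574 genes. On SC, 1 member was higher and 16 were lower in hypothalamus than in cortex, with a median log2 fold change of -0.36 over the 34 members and 0.06 over all genes tested. Over all genes 17.7% were higher and 18.3% lower, 36.1% together. On unscaled TPM with limma the split was 4 higher and 2 lower, and the median of all genes was shifted by 0.30 there. Of the 16 lower members, 6 had a positive fold change on that scale (Acp2, Ctsa, Ctsd, Hexa, Idua and Lamp2). On TPM scaled as above it was 1 higher and 11 lower. In hippocampus against cortex on SC, 9 members were higher and 2 lower (15.4% and 15.3% of all genes, 30.8% together), with a median of 0.21 against 0.04 over all genes. With DESeq2 that split was 9 and 4, and on unscaled TPM it was 11 and 0, with the median of all genes shifted by 0.23. In hypothalamus against hippocampus on SC, 0 members were higher and 12 lower (5.86% and 4.13% of all genes, 10% together), with a median of -0.49 against 0.02. All called differences that involve hypothalamus on SC were therefore lower in hypothalamus, except that of Neu1 against cortex, whereas hippocampus and cortex differed in both directions.

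On HFHS fewer members passed. In hypothalamus against cortex 2 were higher and 3 lower (14.6% and 9.21% of all genes, 23.9% together), with a median of -0.11. Without the 3 libraries of short mean transcript length it was 1 and 9, with DESeq2 2 and 7, on scaled TPM 2 and 6, and on unscaled TPM 3 and 0. Hippocampus against cortex had 6 higher and 4 lower (13.4% and 10.8% of all genes, 24.2% together), with a median of 0.16. On unscaled TPM that split was 7 and 1, and without the 3 short libraries 2 and 5. In hypothalamus against hippocampus 0 were higher and 3 lower (4.24% and 2.18% of all genes, 6.42% together), with a median of -0.15. The 4 members called on both diets in hypothalamus against cortex, all in the same direction, were Asah1, Ctsa, Ctsb and Neu1, which is 80% of the HFHS calls and 23.5% of the SC calls, beside 73.8% and 48.8% over all genes. For hippocampus against cortex the members called on both diets were Asah1, Cln3, Ctsa, Idua, Lamp2, Naglu and Neu1 (70% and 63.6%, beside 67% and 52.8% over all genes). In hypothalamus against hippocampus they were Ctsa, Lamp2 and Mcoln1 (100% and 25%, beside 66.8% and 42.9%). A difference called on 1 diet only is not shown to depend on diet, and the test of that dependence, given further on, called 0 members.

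Markers of several cell types also differed in these contrasts, and astrocyte markers did not always take the direction of the lysosomal genes. On SC 10 of 12 astrocyte markers were lower in hypothalamus than in cortex (median log2 fold change -1.79) and 11 of 12 lower in hippocampus than in cortex (-2.15). In the same 2 contrasts 3 and 6 of 9 oligodendrocyte markers and 6 and 5 of 6 ependymal markers were higher. Over all genes 17.7% and 15.4% were higher and 18.3% and 15.3% lower there. Choroid plexus sums had medians of 12944 in hippocampus SC and 1135 in cortex SC, and sums of the 6 mural markers 671 and 366. Between hypothalamus and hippocampus 1 astrocyte marker was higher and 1 lower, 3 oligodendrocyte and 5 of 5 choroid plexus markers were lower, and 5 of 6 ependymal markers were higher. In that contrast 5.86% of all genes were higher and 4.13% lower. On HFHS 3 of 12 astrocyte markers were lower in hypothalamus than in cortex (median -0.70) and 11 of 12 lower in hippocampus than in cortex (-2.11). Of all genes 9.21% and 10.8% were lower there. Choroid plexus medians were 9880 in hippocampus HFHS and 377 in cortex HFHS, and mural medians 1273 and 365. Microglia markers had 0 of 13 called in all 6 contrasts. The part of these cell types in the differences of the lysosomal genes was not tested, and in bulk RNA fewer cells of a type and less RNA per cell cannot be told apart.

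**Figure D2:**
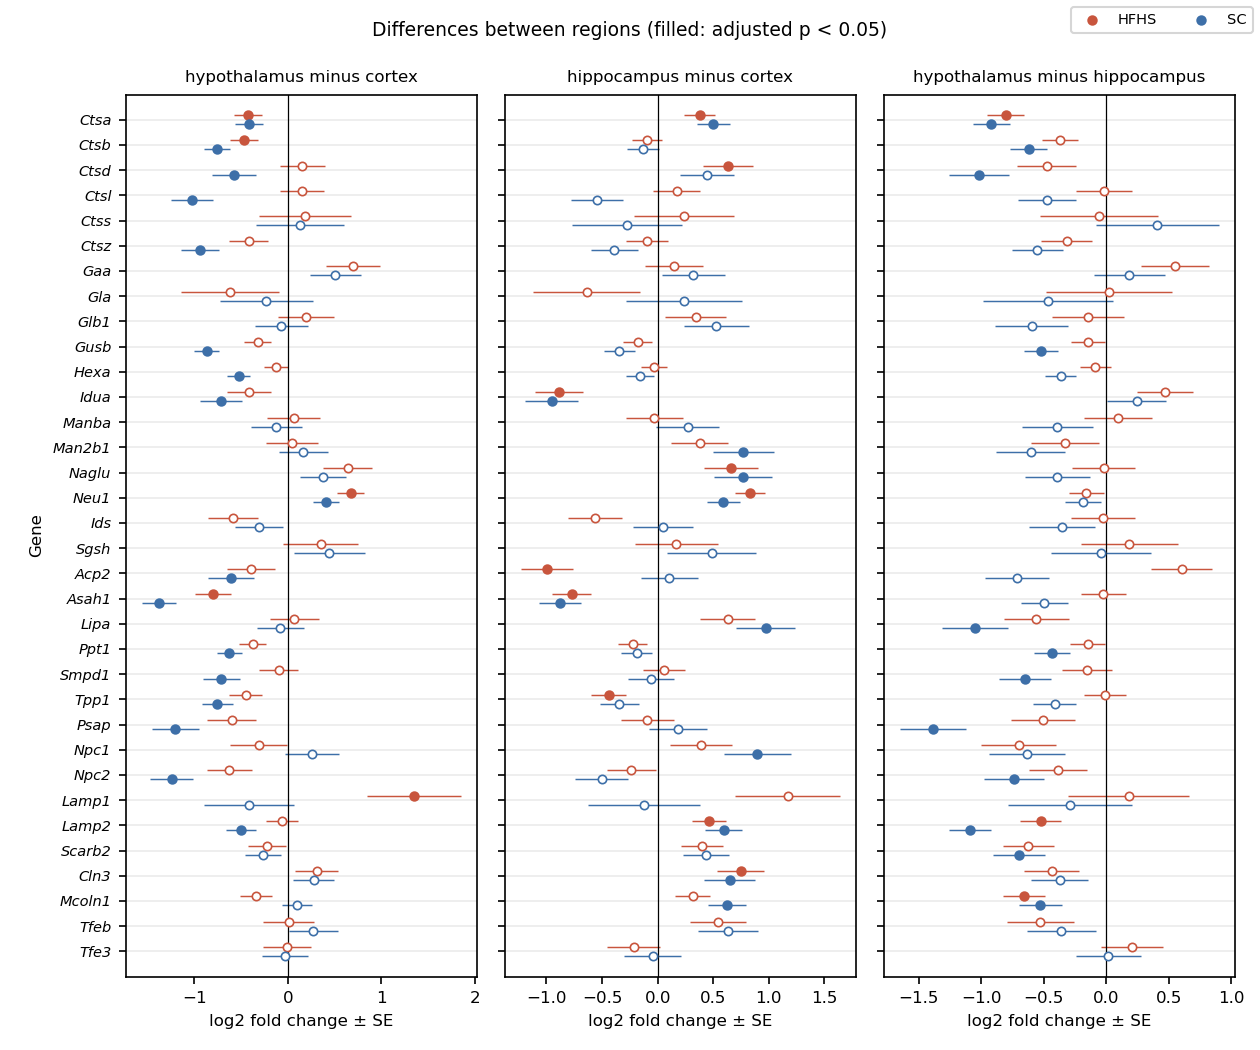
Log2 fold change ± SE of the 34 lysosomal genes between regions, on HFHS (red) and SC (blue), from the model of all 6 groups. Filled points have an adjusted p under 0.05. On SC nearly all filled points of hypothalamus against cortex and all of hypothalamus against hippocampus lie below 0.

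Among the lipid hydrolases, acid ceramidase (Asah1, chr8:41340197-41374773, minus strand, GRCm38), which splits ceramide into sphingosine and a fatty acid, had the smallest p of the members in both contrasts with cortex on SC. It had 90.7, 142, 62.7, 73.3 and 82.7 scaled TPM in the 5 hypothalamus HFHS libraries, 62.9 to 78.2 (median 71.3) in hypothalamus SC, 64.6 to 118 (median 105) in hippocampus HFHS, and 96.9, 146, 67.4, 101 and 114 in the 5 hippocampus SC libraries. Cortex libraries had 116 to 194 (median 157) on HFHS and 144 to 211 (median 175) on SC. No hypothalamus SC library overlapped a cortex SC library, whereas 1 hippocampus SC library, SC 2, lay just inside the cortex SC range. The log2 fold change in hypothalamus against cortex was -1.37 ± 0.18 (SE) on SC (adjusted p = 4.23e-07, edgeR) and -0.80 ± 0.19 on HFHS (adjusted p = 0.00214). Hippocampus against cortex gave -0.88 ± 0.19 on SC (adjusted p = 0.000874) and -0.77 ± 0.17 on HFHS (adjusted p = 0.00123). These 4 calls held when any single library was left out. With limma on unscaled TPM, hypothalamus against cortex on SC alone was still called, the other 3 having fold changes of -0.52 (hypothalamus against cortex on HFHS, adjusted p = 0.13), -0.32 (hippocampus against cortex on SC, 0.32) and -0.49 (hippocampus against cortex on HFHS, 0.117).

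Other enzymes of this group were also lower in hypothalamus than in cortex on SC. Palmitoyl-protein thioesterase Ppt1, which removes fatty acids from proteins, averaged 111 and 162 scaled TPM (log2 fold change -0.62 ± 0.13, adjusted p = 0.000467). The peptidase Tpp1 averaged 114 and 188 (-0.76 ± 0.17, adjusted p = 0.000545), and acid sphingomyelinase Smpd1, which makes ceramide from sphingomyelin, 82.5 and 132 (-0.71 ± 0.20, adjusted p = 0.00521). With limma on unscaled TPM, Ppt1, Tpp1 and Smpd1 had only -0.0044, -0.14 and -0.090 in this contrast (adjusted p = 0.988, 0.761 and 0.846). Acid lipase Lipa, which frees cholesterol from its esters, showed another pattern: it averaged 33 in hippocampus SC, against 16.3 in cortex SC (0.97 ± 0.26, adjusted p = 0.00549), and 15.7 in hypothalamus SC against that 33 (-1.05 ± 0.26, adjusted p = 0.0093). Smpd1 and Ppt1 were also below hippocampus on SC (-0.65 ± 0.21 and -0.43 ± 0.14, adjusted p = 0.0394 and 0.043), but these calls were lost in 9 and 10 of the 11 fits that each left out 1 library. On HFHS, Tpp1 had medians of 147 in hippocampus and 208 in cortex (-0.44 ± 0.16, adjusted p = 0.0391), a call lost in 8 of 13 such fits.

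Cathepsins are proteases. Of the 6, 5 were lower in hypothalamus than in cortex on SC, Ctss alone not being called. Cathepsin B, a cysteine protease, averaged 511 and 831 scaled TPM (-0.75 ± 0.14, adjusted p = 7.3e-05), cathepsin Z 136 and 250 (-0.94 ± 0.20, adjusted p = 0.000386) and cathepsin L 135 and 245 (-1.02 ± 0.22, adjusted p = 0.000534). With limma on unscaled TPM they had -0.14, -0.31 and -0.29 (adjusted p = 0.658, 0.0738 and 0.143). For Ctsz and Ctsl the high end of cortex SC was SC 6, at 408 and 380, but the other 5 cortex SC libraries, at 186 to 243 and 196 to 263, still lay above all hypothalamus SC libraries, at 108 to 156 and 123 to 161. On HFHS only Ctsa and Ctsb of the 6 were called in that contrast, Ctsb at medians of 578 and 860 (-0.47 ± 0.15, adjusted p = 0.018). The Ctsb call was lost without hypothalamus HFHS 3 or HFHS 4 (adjusted p up to 0.0505). Against hippocampus SC, hypothalamus SC was lower in Ctsb, at 511 and 794 (-0.62 ± 0.15, adjusted p = 0.00578), and in Ctsd.

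Cathepsin D (Ctsd), the main aspartic protease of lysosomes, averaged 668 ± 73.2 scaled TPM (SD) in hypothalamus HFHS, 495 ± 61.7 in hypothalamus SC, 924 ± 244 in hippocampus HFHS, 1002 ± 491 in hippocampus SC, 611 ± 138 in cortex HFHS and 716 ± 171 in cortex SC. The 5 hippocampus SC libraries had 883, 709, 435, 1306 and 1674, a range that took in every hypothalamus SC library from 442 upward. The log2 fold change in hypothalamus against hippocampus on SC was -1.02 ± 0.24 (adjusted p = 0.00621), in hypothalamus against cortex on SC -0.57 ± 0.23 (adjusted p = 0.0496) and in hippocampus against cortex on HFHS 0.63 ± 0.22 (adjusted p = 0.037). Of these, the difference from cortex on SC was lost in 9 of 12 fits that each left out 1 library and with the replicate block (adjusted p = 0.0677), and that in hippocampus in 7 of 13.

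Ctsa (chr2:164832873-164841032, plus strand) and Neu1 (chr17:34931253-34935953, plus strand) are partners: the carboxypeptidase cathepsin A binds the sialidase Neu1 in a complex and keeps it stable. Ctsa had 145, 159, 143, 120 and 134 scaled TPM in hypothalamus HFHS, 101 to 169 (median 125) in hypothalamus SC, 195 to 310 (median 255) in hippocampus HFHS, 251, 249, 219, 256 and 256 in hippocampus SC, 151 to 261 (median 188) in cortex HFHS and 150 to 182 (median 163) in cortex SC. Every hippocampus library lay above every hypothalamus library. The log2 fold change in hypothalamus against hippocampus was -0.92 ± 0.15 on SC (adjusted p = 0.000279) and -0.80 ± 0.15 on HFHS (adjusted p = 0.000939). Hippocampus stood above cortex by 0.50 ± 0.15 on SC (adjusted p = 0.0116) and 0.38 ± 0.14 on HFHS (adjusted p = 0.0451, lost in 8 of 13 fits that left out a library). In hypothalamus against cortex it was -0.41 ± 0.15 on SC (adjusted p = 0.0244, lost without hypothalamus SC 5, cortex SC 6 or the 3 short libraries) and -0.42 ± 0.15 on HFHS (adjusted p = 0.0408, lost in 8 of 11).

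Neu1 did not follow Ctsa. It had 34.4, 29.5, 32.1, 32.7 and 33.9 scaled TPM in hypothalamus HFHS, 28.9 to 37.3 (median 32.0) in hypothalamus SC, 31.4 to 44.7 (median 35.2) in hippocampus HFHS, 42.9, 33.2, 37.7, 34.6 and 42.3 in hippocampus SC, 14.8 to 26.3 (median 18.8) in cortex HFHS and 16.3 to 28.4 (median 24.0) in cortex SC. All 23 hypothalamus and hippocampus libraries lay above all 12 cortex libraries. Neu1 was the 1 member that was higher in hypothalamus than in cortex on SC (0.41 ± 0.14, adjusted p = 0.0216, lost without hypothalamus SC 1, cortex SC 6 or the 3 short libraries), and it was higher on HFHS too (0.67 ± 0.15, adjusted p = 0.000745). Relative to cortex it was higher in hippocampus by 0.59 ± 0.15 on SC (adjusted p = 0.00248) and by 0.83 ± 0.14 on HFHS (adjusted p = 3.09e-05).

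Among the other glycosidases, beta-glucuronidase Gusb averaged 18.2 scaled TPM in hypothalamus SC and 32.3 in cortex SC (-0.87 ± 0.13, adjusted p = 5.03e-06), with 13.9 to 20.4 in hypothalamus SC and 25.5 to 38.5 in cortex SC, and it was below hippocampus SC at 18.2 and 25.6 (-0.52 ± 0.14, adjusted p = 0.0141, but 0.0591 without hippocampus SC 4). Hexa, which acts on ganglioside GM2, averaged 64.8 in hypothalamus SC and 90.7 in cortex SC (-0.52 ± 0.12, adjusted p = 0.00092). Idua, which cuts iduronic acid from glycosaminoglycans, was lowest in hippocampus, at 13.4 on HFHS and 16.6 on SC, against 24.4 in cortex HFHS and 29.5 in cortex SC (-0.89 ± 0.22 and -0.95 ± 0.24, adjusted p = 0.00268 and 0.0029). Idua was also lower in hypothalamus SC than in cortex SC (20.5 and 29.5, -0.71 ± 0.22, adjusted p = 0.0129), but with -0.43 and an adjusted p of 0.0949 without cortex SC 6, which held 57.3. On unscaled TPM the direction of Hexa and Idua in hypothalamus against cortex on SC turned. Gusb had -0.28 there (adjusted p = 0.206, limma).

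Naglu, of heparan sulfate breakdown, averaged 24.2 in hippocampus SC and 13.9 in cortex SC (0.77 ± 0.26, adjusted p = 0.0237), and 19.8 in hippocampus HFHS and 13.1 in cortex HFHS (0.66 ± 0.24, adjusted p = 0.0433). The alpha-mannosidase Man2b1 averaged 34.7 in hippocampus SC and 20.2 in cortex SC (0.77 ± 0.28, adjusted p = 0.033). Each of these calls rests on few libraries: the SC calls of Naglu and Man2b1 were lost in 3 and 5 of 11 fits that left out a library, with adjusted p up to 0.0665 and 0.115, and the HFHS call of Naglu in 7 of 13. Gaa, Gla, Glb1, Manba and the sulfatases Ids and Sgsh passed the threshold in none of the 6 region contrasts.

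Prosaposin (Psap, chr10:60277627-60302597, plus strand) is cut in lysosomes into saposins that present sphingolipids to their hydrolases. It averaged 742 ± 227 scaled TPM in hypothalamus HFHS, 531 ± 129 in hypothalamus SC, 1055 ± 275 in hippocampus HFHS, 1385 ± 399 in hippocampus SC, 1153 ± 313 in cortex HFHS and 1185 ± 384 in cortex SC. The 5 hippocampus SC libraries had 1067, 1440, 889, 1757 and 1771, all above the highest of hypothalamus SC, 765. In cortex SC, SC 6 had 440 and the other 5 had 1243 to 1563. The log2 fold change in hypothalamus against hippocampus on SC was -1.39 ± 0.26 (adjusted p = 0.001), and against cortex on SC -1.20 ± 0.25 (adjusted p = 0.000343). On HFHS the same contrasts gave -0.51 ± 0.26 (adjusted p = 0.26) and -0.60 ± 0.26 (adjusted p = 0.0989). With limma on unscaled TPM the difference from cortex on SC was -0.56 (adjusted p = 0.249).

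NPC2 and NPC1 hand cholesterol out of the lysosome, the first in the lumen and the second in the membrane. Npc2 averaged 67.9 ± 17.9 scaled TPM in hypothalamus HFHS, 52.5 ± 8.14 in hypothalamus SC, 88.8 ± 9.33 in hippocampus HFHS, 86.9 ± 9.41 in hippocampus SC, 105 ± 41.9 in cortex HFHS and 117 ± 48.4 in cortex SC. The highest library of each cortex group was number 6, at 190 on HFHS and 206 on SC. In hypothalamus against cortex on SC it differed by -1.24 ± 0.23 (adjusted p = 7.97e-05), and against hippocampus on SC by -0.74 ± 0.24 (adjusted p = 0.0436, lost in 9 of 11 fits that left out a library). Npc1 was called in hippocampus against cortex on SC alone, at 37.8 and 22.7 (0.89 ± 0.30, adjusted p = 0.0232), and this call was lost without hippocampus SC 1 or SC 3 (adjusted p = 0.0538 and 0.0772).

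Of the membrane proteins, Lamp2 (chrX:38401357-38456454, minus strand) was highest in hippocampus. It averaged 187 ± 43.4 scaled TPM in hypothalamus HFHS, 147 ± 20.9 in hypothalamus SC, 308 ± 52.7 in hippocampus HFHS, 343 ± 51.4 in hippocampus SC, 199 ± 53.1 in cortex HFHS and 192 ± 27.3 in cortex SC. The 5 hippocampus SC libraries had 362, 321, 268, 359 and 405, above all of hypothalamus SC (131 to 187) and cortex SC (164 to 241). The log2 fold change in hypothalamus against hippocampus was -1.09 ± 0.17 on SC (adjusted p = 0.000111) and -0.52 ± 0.16 on HFHS (adjusted p = 0.0489, lost in 10 of 12 fits that left out a library), and in hypothalamus against cortex on SC -0.50 ± 0.16 (adjusted p = 0.0152, lost without cortex SC 2). Hippocampus against cortex gave 0.59 ± 0.17 on SC (adjusted p = 0.00732) and 0.46 ± 0.16 on HFHS (adjusted p = 0.0284, lost in 4 of 13).

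The calcium channel Mcoln1 averaged 102 in hippocampus SC and 61.7 in cortex SC (0.62 ± 0.17, adjusted p = 0.00571). Against hippocampus, hypothalamus had 59.6 and 90.8 on HFHS (-0.66 ± 0.17, adjusted p = 0.0148) and 75.4 and 102 on SC (-0.53 ± 0.17, adjusted p = 0.0424, lost in 7 of 11 fits that left out a library). Cln3, a membrane protein mutated in juvenile Batten disease in humans, averaged 79.3 in hippocampus HFHS and 45.9 in cortex HFHS (0.75 ± 0.21, adjusted p = 0.00952), and 74.8 in hippocampus SC and 40.7 in cortex SC (0.65 ± 0.23, adjusted p = 0.0292, lost in 4 of 11). Scarb2, which carries glucocerebrosidase to lysosomes, averaged 29.5 in hypothalamus SC and 47.6 in hippocampus SC (-0.70 ± 0.20, adjusted p = 0.0261, lost in 6 of 11). On HFHS, Scarb2 differed by -0.62 ± 0.20 in that contrast (adjusted p = 0.058 in edgeR), and it passed with DESeq2 (0.021), on scaled TPM (0.0465), with the replicate block (0.00431) and without the 3 short libraries (0.0359).

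Neither transcription factor was called in any region contrast. Tfeb averaged 33 ± 4.06 scaled TPM in hypothalamus HFHS, 39.4 ± 11.9 in hypothalamus SC, 46.3 ± 12.1 in hippocampus HFHS, 52.9 ± 13.2 in hippocampus SC, 32.3 ± 16.5 in cortex HFHS and 32.8 ± 6.99 in cortex SC. Its groups overlapped, and the smallest adjusted p of its 6 region contrasts was 0.0757, for hippocampus against cortex on SC (0.63 ± 0.27). Tfe3 averaged 12.5 over all libraries and ranged from 4.38 to 17.9. Transcript levels do not show how much of either protein was in the nucleus.

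Genes of the wider lysosomal system were read from 6 lists chosen with the members. Of 17 V-ATPase genes, 12 were lower in hypothalamus than in cortex on SC and 0 higher, 7 were lower in hypothalamus than in hippocampus on SC and 0 higher, and in hippocampus against cortex on SC 2 were higher and 2 lower. Over all genes 36.1%, 10% and 30.8% were called in these contrasts. Atp6v1e1, a stalk subunit of the pump, averaged 158 in hypothalamus SC and 346 in cortex SC (-1.21 ± 0.23, adjusted p = 0.000125). The accessory subunit Atp6ap2 was high in hippocampus: it averaged 253 in hippocampus SC and 117 in cortex SC (1.02 ± 0.16, adjusted p = 2.51e-05), and 120 in hypothalamus SC and 253 in hippocampus SC (-1.10 ± 0.16, adjusted p = 6.63e-05). On HFHS it averaged 230 in hippocampus and 127 in cortex (0.85 ± 0.15, adjusted p = 9.34e-05). On HFHS the V-ATPase counts were 0 higher and 5 lower in hypothalamus against cortex, 2 and 1 in hippocampus against cortex, and 0 and 3 in hypothalamus against hippocampus, where 23.9%, 24.2% and 6.42% of all genes were called.

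Of 14 genes that control TFEB and mTORC1, 7 were lower and 1 higher in hypothalamus than in cortex on SC, among them the small GTPase Rraga, which brings mTORC1 to the lysosome, at 42.7 and 90.1 scaled TPM (-1.14 ± 0.19, adjusted p = 1.09e-05). Of 13 autophagy genes 6 were lower and 0 higher, among them Map1lc3b, the LC3B of autophagosome membranes, at 284 and 633 (-1.20 ± 0.20, adjusted p = 1.88e-05). Of 22 other hydrolases 2 were higher and 5 lower, with cathepsin F (Ctsf) at 97.9 and 186 (-1.09 ± 0.18, adjusted p = 1.75e-05), and of 16 other membrane proteins 1 was higher and 5 lower. Of the 9 genes of mannose 6-phosphate sorting 2 were higher and 1 lower. In this contrast 36.1% of all genes were called, 17.7% higher and 18.3% lower, a share that the other hydrolases, the other membrane proteins and the sorting genes lay near. Igf2r, a mannose 6-phosphate receptor, averaged 1.70 in hypothalamus SC and 0.463 in cortex SC (1.80 ± 0.40, adjusted p = 0.000714). Between hippocampus and cortex on SC, 4 of the 9 sorting genes were higher and 0 lower, where 30.8% of all genes were called. On HFHS 2 were higher and 0 lower, near the 24.2% of all genes. The receptor M6pr was at 130 in hippocampus HFHS and 84.1 in cortex HFHS (0.66 ± 0.18, adjusted p = 0.00659, edgeR).

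For diet, each region was fitted alone. In none of the 3 regions did a member pass the threshold in edgeR, where 0% of 19272 genes in hypothalamus, 0% of 19036 in hippocampus and 0% of 17844 in cortex passed. At an unadjusted p under 0.05 there were 9 members in hypothalamus (8.5% of all genes), 4 in hippocampus (5.17%) and 2 in cortex (9.26%). DESeq2 called 2 members in hypothalamus, 1 in hippocampus and 1 in cortex, named below. Limma on log2(TPM + 1) called 0, scaled or not. Median log2 fold changes of the members were 0.21 in hypothalamus, -0.14 in hippocampus and 0.01 in cortex, and over all genes -0.01, 0.00 and -0.02.

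In hypothalamus 25 of 34 fold changes were positive, with a median of 0.45 over the 6 cathepsins and 0.39 over Psap, Npc1 and Npc2. Hexa had 88.2, 92.1, 93.8, 66.6 and 82.6 scaled TPM on HFHS and 60.1 to 67.7 (median 65.8) on SC. The libraries of the 2 diets overlapped through HFHS 4 only, and the log2 fold change was 0.39 ± 0.12 (adjusted p = 0.472 in edgeR, 0.0364 in DESeq2). Ctsz had 195, 212, 195, 169 and 160 on HFHS and 108 to 156 (median 137) on SC, with no overlap (0.46 ± 0.14, adjusted p = 0.472). Ctsd had 679, 733, 744, 599 and 586 on HFHS and 442, 428, 516, 469, 594 and 523 on SC. HFHS 5 lay below the highest SC library, and the difference was 0.44 ± 0.14 (adjusted p = 0.48 in edgeR, 0.0342 in DESeq2). Ctsl had 186, 245, 156, 148 and 156 on HFHS and 123 to 161 (median 130) on SC (0.48 ± 0.16, adjusted p = 0.482), so that HFHS 1 and HFHS 2 alone lay above all SC libraries.

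Astrocyte markers also stood higher in hypothalamus HFHS than in SC, with a median log2 fold change of 0.84 and 6 of 12 at an unadjusted p under 0.05, and the 5 precursor markers stood lower (-1.64, 5 of 5). None of these markers was called. HFHS 2 had the highest astrocyte sum of hypothalamus, 12636, and the highest Asah1, Psap, Npc2, Lamp2 and Ctsl of that region. The part of these markers in the hypothalamus differences was not tested.

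**Figure D3:**
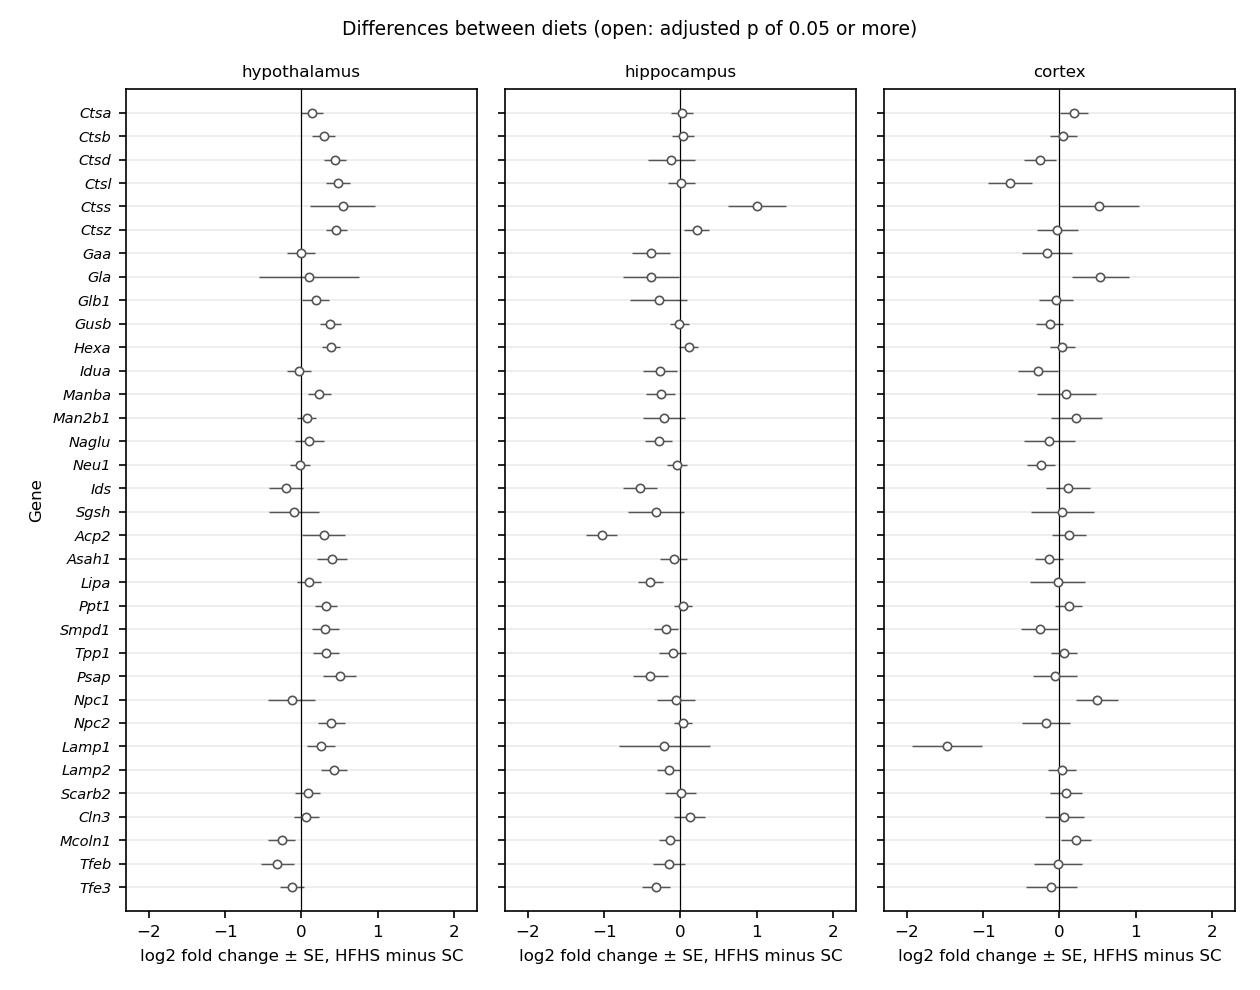
Log2 fold change ± SE between HFHS and SC (HFHS minus SC) of the 34 lysosomal genes in each region, each region fitted alone. All points are open, since none had an adjusted p under 0.05. Most points of hypothalamus lie right of 0, Acp2 stands apart in hippocampus and Lamp1 in cortex.

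In hippocampus, acid phosphatase 2 (Acp2, chr2:91202885-91214098, plus strand) had the smallest p of the 34. It had 8.70 to 18.9 scaled TPM (median 14.3) on HFHS, against 25.6, 21.3, 19.0, 21.6 and 25.9 on SC. All 7 HFHS libraries lay below all 5 SC libraries, though HFHS 2 and SC 3 nearly met. The log2 fold change was -1.03 ± 0.20 (unadjusted p = 0.000179, adjusted p = 0.854 in edgeR and 0.013 in DESeq2). In the other groups Acp2 averaged 18 ± 6.71 in hypothalamus HFHS, 15.5 ± 4.60 in hypothalamus SC, 23.4 ± 2.92 in cortex HFHS and 21 ± 5.80 in cortex SC. Between regions it was lower in hippocampus HFHS than in cortex HFHS (-1.0 ± 0.23, adjusted p = 0.00199) and in hypothalamus SC than in cortex SC (-0.61 ± 0.24, adjusted p = 0.049, lost in 9 of 12 fits that left out a library and without the 3 short ones).

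The transcripts of Acp2 differed in the same groups. The protein-coding Acp2-201 held 36.1 ± 8.93% of Acp2 TPM in hippocampus HFHS and 63.3 ± 4.05% in hippocampus SC (SD, n = 7 and 5), at 4.83 ± 1.97 and 14.4 ± 1.94 scaled TPM. A retained-intron transcript of Acp2 had 6.00 ± 1.63 and 6.06 ± 1.26 scaled TPM, close to each other. By these estimates the lower level on HFHS was that of Acp2-201, which was not tested. Acp2 shares exon sequence with the neighbouring Ddb2, and the library kit does not keep strand.

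The other hippocampus members of smallest p were Ctss (1.0 ± 0.37), Lipa (25.6 and 33, -0.40 ± 0.16) and Ids, an iduronate sulfatase (25.2 and 37.1, -0.53 ± 0.22), each with an adjusted p of 0.876. In cortex they were Lamp1, Ctsl, Npc1 and Gla. Ctsl averaged 156 on HFHS and 245 on SC (-0.65 ± 0.28, adjusted p = 0.501), with an adjusted p of 0.0353 without the 3 short libraries and 0.0343 with a replicate block. Npc1 averaged 37.5 and 22.7 (0.49 ± 0.27, adjusted p = 0.654) and Gla, an alpha-galactosidase, 2.50 and 1.71 (0.54 ± 0.37, adjusted p = 0.744).

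The diet effects of 2 regions were set against each other in the model of all 6 groups, and 0 members and 0% of 21574 genes passed in each of the 3 pairs in edgeR. DESeq2 and limma called 0 members in each as well. For hypothalamus against cortex, however, Ctsl passed with the replicate block (adjusted p = 0.0293), without the 3 short libraries (0.0188) and without cortex HFHS 6 (0.034), and Lamp1 with the block (0.0429). At an unadjusted p under 0.05 there were 7 members for hypothalamus against cortex, 2 for hippocampus against cortex and 3 for hypothalamus against hippocampus, and 2496, 2007 and 433 of all genes. For hypothalamus against cortex the smallest p belonged to Ctsl (1.17 ± 0.32, adjusted p = 0.189), Gusb (0.54 ± 0.19, adjusted p = 0.277), Lamp1 (1.76 ± 0.69, adjusted p = 0.32) and Hexa (0.40 ± 0.17, adjusted p = 0.361). For hippocampus against cortex they were Acp2 (-1.10 ± 0.34, adjusted p = 0.464), Ctsl (0.71 ± 0.32, adjusted p = 0.523), Lamp1 (1.29 ± 0.69, adjusted p = 0.557) and Ids (-0.61 ± 0.36, adjusted p = 0.59). For hypothalamus against hippocampus they were Acp2 (1.32 ± 0.35), Lamp2 (0.57 ± 0.23), Psap (0.88 ± 0.36) and Gusb (0.38 ± 0.19), each with an adjusted p of 1.

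Lamp1 (chr8:13159161-13175338, plus strand), with LAMP-2 the main glycoprotein of the lysosomal membrane, varied widely between libraries of hippocampus and of cortex. Over all 6 groups its SD within groups was 0.897 on the log2 scale, beside 0.950 for Gla and 0.895 for Ctss. Lamp1 had 1011, 1133, 810, 780 and 777 scaled TPM in hypothalamus HFHS and 666 to 1063 (median 713) in hypothalamus SC. In hippocampus HFHS it ran from 183 to 1461 (median 1068), and hippocampus SC had 1522, 456, 1478, 235 and 1002. In cortex it ran from 136 to 968 (median 217) on HFHS and from 463 to 1405 (median 974) on SC. Hypothalamus was thus even, whereas hippocampus held high and low libraries on both diets. In cortex HFHS 5 of 6 libraries lay below all SC libraries, HFHS 6 by a narrow margin (461, against 463 in SC 6), and HFHS 1 lay among them.

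The cortex difference of Lamp1 was -1.48 ± 0.46 on the log2 scale (means 361 ± 319 and 995 ± 317), with an adjusted p of 0.258 in edgeR and 0.0411 in DESeq2. Without cortex HFHS 1 it was -2.06 with an adjusted p of 0.0251 in edgeR. In hypothalamus the diet difference was 0.26 ± 0.18 (means 902 ± 161 and 767 ± 151, adjusted p = 0.745) and in hippocampus -0.21 ± 0.59 (796 ± 536 and 939 ± 584, adjusted p = 0.959). Hypothalamus HFHS stood above cortex HFHS by 1.35 ± 0.50 (adjusted p = 0.0481), a call lost in 9 of 11 fits that left out a library.

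The kinase gene Dapk3, on none of the lists and with a level known to vary widely between these libraries, was set beside Lamp1. Neither the gene nor the value of 10 used for it was planned. The overlap below is a description of these same data, not a test. Below 500 scaled TPM of Lamp1, a value chosen after the levels were seen, lay 11 of the 35 libraries, 5 in hippocampus and 6 in cortex, and Dapk3 was under 10 scaled TPM in all 11. In 5 further libraries Dapk3 was under 10 with Lamp1 above 500. In cortex Dapk3 was 0.507 to 2.46 on HFHS and 2.13 to 45.2 on SC. What the libraries low in both genes share was not tested.

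The start of Lamp1 is shown because it holds 4 copies of the E-box core CACGTG within 70 bases. Counting cores with a T before or an A after, no other member with a RefSeq entry had as many. Below are the 70 bases directly upstream of the RefSeq start of Lamp1 (GRCm38.p6, chr8:13159091-13159160, plus strand), with the cores in capitals.
Lamp1: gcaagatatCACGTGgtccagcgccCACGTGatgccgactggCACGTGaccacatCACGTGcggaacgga
Promoter windows of 250 bases before to 50 after the start were found in RefSeq for 31 members, Asah1, Ctsb and Npc1 having no entry. The core CACGTG, which reads the same on both strands, was in 11 of the 31 (35.5%) and in 8.09% of 27025 genes. The longer TCACGTG, on either strand and always containing the core, was in 10 of 31 (32.3%) and 4.29% of genes. For 4 of the members that differed between regions, 1 site each is given with the core in capitals. Of these, Cln3, Ctsa and Mcoln1 hold 2 such cores each.
Cln3, chr7:126583341-126583368, minus strand: acgggtactgtCACGTGacccccaacct
Ctsa, chr2:164833750-164833777, plus strand: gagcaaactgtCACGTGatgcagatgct
Mcoln1, chr8:3500463-3500490, plus strand: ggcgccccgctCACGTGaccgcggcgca
Naglu, chr11:101070010-101070037, plus strand: aaccttcaggtCACGTGgcccgaggtcg
The other members with the core were Ctsd, Ctsl, Gaa, Gla, Glb1 and Sgsh, of which Ctsd and Ctsl also differed between regions. The matches describe letters, not binding.

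Cathepsin S (Ctss, chr3:95526786-95556403, plus strand) is a cysteine protease of antigen presenting cells, in brain mainly of microglia. It averaged 189 ± 83.4 scaled TPM in hypothalamus HFHS, 131 ± 82.9 in hypothalamus SC, 198 ± 131 in hippocampus HFHS, 99.7 ± 26.8 in hippocampus SC, 170 ± 72.7 in cortex HFHS and 117 ± 78.4 in cortex SC. In hippocampus it ran from 86.9 to 475 (median 149) on HFHS, against 90.7, 79.3, 85.2, 97.2 and 146 on SC, and the groups overlapped. No region contrast or diet contrast called it.

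Ctss followed the microglia markers from library to library. In 6 of 6 groups the library highest in Ctss was also highest in the sum of the 13 markers, and likewise the lowest. Per 100 scaled TPM of the markers there were 14.5 to 26.6 scaled TPM of Ctss over the 35 libraries (median 19.8), while Ctss itself spanned 23.3-fold. By group this ratio was 22.2 to 26.6 in hypothalamus HFHS, 17.1 to 23.1 in hypothalamus SC and 17.7 to 23.0 in hippocampus HFHS. It was 17.6 to 20.6 in hippocampus SC, 19.0 to 21.2 in cortex HFHS and 14.5 to 18.9 in cortex SC. The ranges of the cortex groups did not overlap, and the ratio was not tested. Hippocampus HFHS 4, with 475 of Ctss, had 2180 of the markers, the highest of both. In hippocampus the median log2 fold change of these markers between HFHS and SC was 0.77, with 7 of 13 at an unadjusted p under 0.05 and 0 called, beside the 1.0 ± 0.37 of Ctss.

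**Figure D4:**
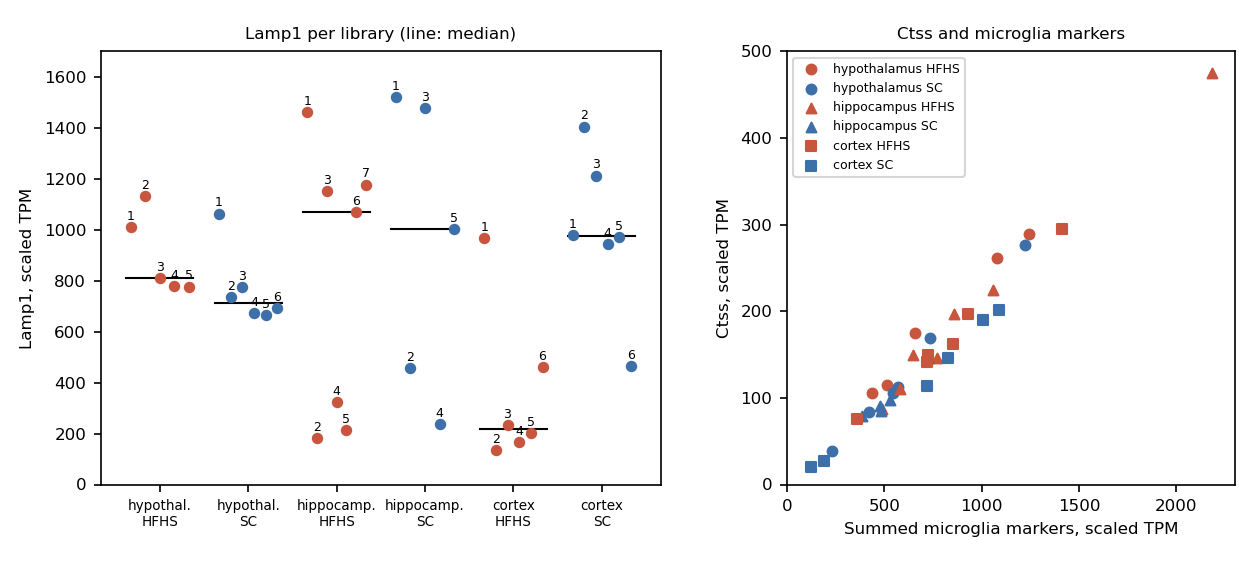
Left, Lamp1 in scaled TPM for each library, with its replicate number and the median of the group as a line: hippocampus and cortex each hold low and high libraries, between 136 and 1522. Right, Ctss against the sum of 13 microglia markers in the 35 libraries, both in scaled TPM: the points lie close to a line that ends at 2180 and 475 in hippocampus HFHS 4.

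Lamp2 makes 3 proteins that differ in their last exon, which encodes the transmembrane segment and the cytoplasmic tail. LAMP-2A is the receptor of chaperone-mediated autophagy, and LAMP-2B and LAMP-2C have other tails. The last 39 coding bases of each form are shown since they tell the forms apart (GENCODE release 21, GRCm38, minus strand, 5′ to 3′, stop codon in capitals).
LAMP-2A, chrX:38405432-38405470: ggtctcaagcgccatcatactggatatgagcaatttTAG
LAMP-2B, chrX:38421712-38421750: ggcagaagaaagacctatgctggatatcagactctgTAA
LAMP-2C, chrX:38402139-38402177: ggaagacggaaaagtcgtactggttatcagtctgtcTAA
LAMP-2A held most of the Lamp2 TPM in every group, at 63.1 ± 5.93% in hypothalamus HFHS, 62.5 ± 7.41% in hypothalamus SC, 75.2 ± 4.90% in hippocampus HFHS, 73.7 ± 4.52% in hippocampus SC, 62.0 ± 8.31% in cortex HFHS and 62.2 ± 9.05% in cortex SC. LAMP-2B held 34.2 ± 6.57% in hypothalamus HFHS, 33.8 ± 7.45% in hypothalamus SC, 21 ± 4.77% in hippocampus HFHS, 22.3 ± 4.52% in hippocampus SC, 35.6 ± 8.80% in cortex HFHS and 36.1 ± 8.79% in cortex SC. The mean share of form A was larger and that of form B smaller in hippocampus than in either other region. LAMP-2C stayed between 1.38 ± 0.469% (cortex SC) and 3.70 ± 0.645% (hippocampus SC).

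Exact two-sided permutation tests over libraries, adjusted over all 18 comparisons of form, regions and diet, were used for these shares. In hypothalamus against hippocampus the LAMP-2A share differed by -12.1 percentage points on HFHS (adjusted p = 0.0273) and -11.2 on SC (adjusted p = 0.039), and the LAMP-2B share by 13.2 (adjusted p = 0.0227) and 11.5 (adjusted p = 0.042). In hippocampus against cortex LAMP-2A differed by 13.2 on HFHS (adjusted p = 0.028) and 11.5 on SC (adjusted p = 0.0649), and LAMP-2B by -14.6 (adjusted p = 0.0273) and -13.9 (adjusted p = 0.039). With 1 library left out, the SC calls of these forms were lost in most fits: LAMP-2A and LAMP-2B in hypothalamus against hippocampus in 8 of 11 fits each (adjusted p up to 0.0727 and 0.0779), and LAMP-2B in hippocampus against cortex in 10 of 11, all but that without cortex SC 6 (up to 0.0727). Their HFHS calls held in all such fits. LAMP-2C differed in hippocampus against cortex by 1.42 points on HFHS (adjusted p = 0.042, lost in 9 of 13 such fits) and 2.31 on SC (adjusted p = 0.026), and in hypothalamus against cortex by 1.86 on SC (adjusted p = 0.0227). In hypothalamus against cortex the LAMP-2A and LAMP-2B shares differed by 0.25 and -2.38 points on SC, with adjusted p of 0.948 and 0.813. As a level, LAMP-2A averaged 116 scaled TPM in hypothalamus HFHS, 92.4 in hypothalamus SC, 232 in hippocampus HFHS, 253 in hippocampus SC, 125 in cortex HFHS and 118 in cortex SC. LAMP-2B was more even, at 66 in hypothalamus HFHS, 49.1 in hypothalamus SC, 64.6 in hippocampus HFHS, 76.4 in hippocampus SC, 69.4 in cortex HFHS and 70.3 in cortex SC.

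Psap is read in forms with and without a 9-base exon (chr10:60297537-60297545, GRCm38, plus strand). The junction is shown with 21 bases on either side and the small exon in capitals.
Psap-205: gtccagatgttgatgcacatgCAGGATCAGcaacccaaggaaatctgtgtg
Psap-202: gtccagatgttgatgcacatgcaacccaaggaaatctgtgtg
Psap-205, with the exon, held 45.1 ± 14.5% of Psap TPM in hypothalamus HFHS, 41.5 ± 6.83% in hypothalamus SC, 29.5 ± 10.6% in hippocampus HFHS, 28.5 ± 11.5% in hippocampus SC, 72.2 ± 10.8% in cortex HFHS and 76.6 ± 7.86% in cortex SC. Every cortex library, at 57.0% to 87.4%, lay above every hippocampus library, at 17.7% to 47.6%. Psap-202, without it, led in hippocampus with 66.3% on HFHS and 69.9% on SC, against 25.9% and 20.3% in cortex. In hypothalamus HFHS, the 5 libraries had 37.6, 70.4, 35.9, 37.1 and 44.3% of Psap-205, and the high one, HFHS 2, was the hypothalamus library with the highest astrocyte marker sum. The form shares of Psap were described after their values were seen and were not tested.

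**Figure D5:**
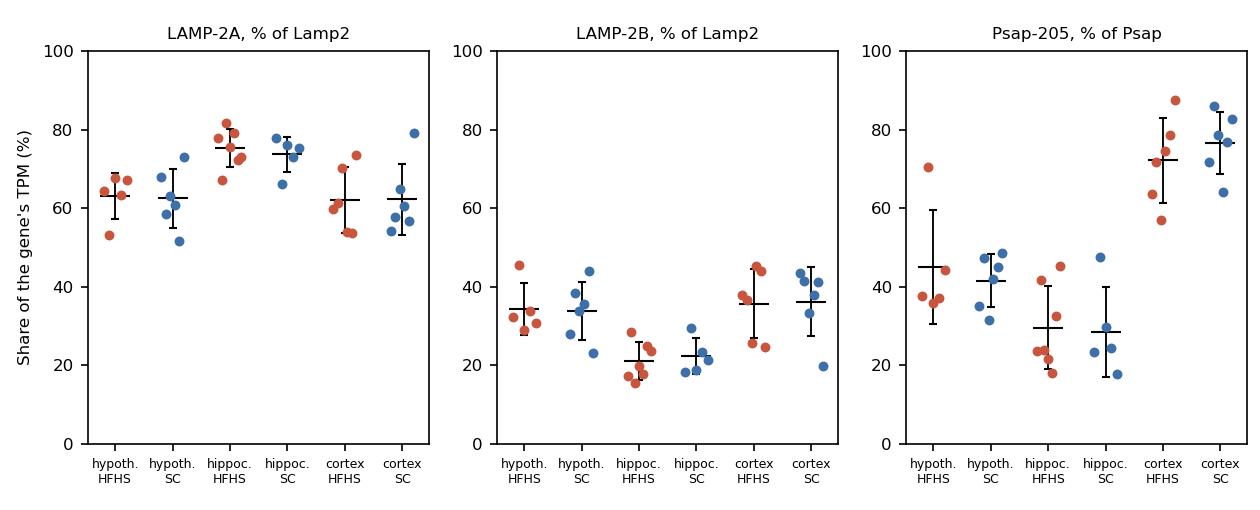
Share (%) of the gene's TPM held by LAMP-2A, LAMP-2B and Psap-205 in each library, with the group mean ± SD, on HFHS (red) and SC (blue). Hippocampus stands above the other regions in LAMP-2A and below them in LAMP-2B, and cortex stands highest in Psap-205.

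The leading transcript also changed between groups for Gaa and Npc1. For Gaa, the acid alpha-glucosidase, the group means of Gaa-201 and Gaa-203 lay between 44.0% and 55.3%, and single libraries between 22.2% and 77.1%. For Npc1 the retained-intron transcript Npc1-206 held 12.4 ± 13.4% of TPM in hypothalamus HFHS, 9.24 ± 7.08% in hypothalamus SC, 46.2 ± 24.2% in hippocampus HFHS, 30.5 ± 13.4% in hippocampus SC, 66 ± 13.3% in cortex HFHS and 44.1 ± 18.5% in cortex SC. The protein-coding Npc1-201 averaged 13.1 ± 8.85 scaled TPM in cortex HFHS and 11.3 ± 3.50 in cortex SC, although the gene as a whole had 37.5 and 22.7. For 13 members exons overlap those of another protein-coding gene. These are Acp2, Cln3, Ctsa, Ctsb, Ctsd, Ctsz, Glb1, Hexa, Idua, Lamp1, Npc1, Ppt1 and Sgsh. For Ctsd and Glb1 the other gene lies on the same strand, so that strand would not separate them. For the rest it lies on the opposite strand, where reads without strand cannot separate the genes within the shared stretch. The longest exon overlap ran from 10 bases for Ctsz to 839 for Sgsh.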

How the data were processed

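RNA of ACSA2-selected cells was sequenced after SMART-Seq v4 amplification, per the labels' protocols, in 35 libraries. For every transcript the authors deposited 2 values, the estimated count and the TPM, from Salmon per the submitters' processing notes, which also name FastQC. Their versions are not given in the sources at hand. Of 140948 transcripts, 139852 matched GENCODE mouse release 21 (GRCm38), and the 1096 others, with 0.214% to 0.535% of reads, were left out. Estimated counts were summed to 54119 genes and rounded. Amplified reads carry no molecular identifiers, so depth alone does not set precision.

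Genes were tested with edgeR 4.0.16 (R 4.3.3), robust quasi-likelihood test, TMM scaling and filterByExpr, with Benjamini-Hochberg adjustment and 0.05 as the threshold. Diets were compared within a region, and regions and interactions in 1 model of 6 groups. SE is the fold change divided by the root of F. Scaled TPM is the deposited TPM over a TMM factor of the TPM table. Alternatives were DESeq2 1.42.0, RLE size factors, no filter, limma 3.58.1 on log2(TPM + 1), the same on scaled TPM (added after the data were seen), a replicate block, and leaving out the 3 short libraries or any 1 library. Lamp2 forms were tested with exact permutations in scipy 1.17.1. Values described are those of members past the threshold, up to 12 by p, or the 4 of smallest p where fewer than 4 passed. Ctsd, Acp2, Neu1, Ctsa and Lamp2, called beyond the 12 in hypothalamus against cortex on SC, were added after their values were seen. Code was tested on simulated data.

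The members and lists were chosen with earlier results of these data known. Replicate numbers are shared between groups, and the labels do not say what a number stands for. Same-numbered libraries deviated together, with every correlation over 0.1, in hippocampus HFHS and SC (lowest 0.102) and in hypothalamus and cortex SC (lowest 0.106).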

Additional observations from a re-analysis of the deposited data

Results flagged for a closer look

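A library stood apart from the rest of its group, by its gap to the next library over the group's range, in 27 of 204 sets of a member and a group. Chance gives about 1 in 20. Cortex SC 6 accounted for 7 of the 27, with Ctsl at 380 scaled TPM, Ctsz at 408 and Idua at 57.3 high, and Gaa at 32.6, Tpp1 at 90.5, Psap at 440 and Tfeb at 19.3 low. Cortex HFHS 6 accounted for 5, with Ctsz at 402 and Npc2 at 190 high and Manba at 3.18, Man2b1 at 9.39 and Psap at 536 low. These are the 2 libraries of shortest mean transcript length and of the smallest TMM factors, 0.376 and 0.511. Division by so small a factor raises every scaled level of a library. The part of length and of scaling in these values was not tested. In hypothalamus SC 6, the third short library, Ctsl was high at 161 and Gaa at 92.5 and Tpp1 at 84.0 were low. Hypothalamus SC 1 was high in Lamp1 at 1063, Lamp2 at 187 and Lipa at 21.9.

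The other 9 were in 9 libraries. Ctss was high at 475 in hippocampus HFHS 4 and at 146 in hippocampus SC 5. Ctsa was low at 219 in hippocampus SC 3, and Npc2 high at 108 in hippocampus HFHS 5. Npc1 was high at 37.4 in hypothalamus HFHS 3 and at 63.3 in cortex HFHS 3, Smpd1 at 147 in hypothalamus HFHS 2, Idua at 30.0 in hypothalamus SC 2 and Gla at 3.22 in cortex SC 5.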

How the results depend on the processing

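Among the region differences of named members, 58 of 59 kept their direction and side of the threshold under DESeq2, 56 under RLE size factors, 41 without the count filter, 26 on unscaled TPM, 49 on scaled TPM, 56 with the replicate block and 49 without the 3 short libraries, and 543 of 690 with 1 library left out. On unscaled TPM Hexa (0.053), Idua (0.077), Ctsa (0.19), Ctsd (0.028), Acp2 (0.073) and Lamp2 (0.15) reversed in hypothalamus against cortex on SC. Scaling is the one step that differs between the TPM settings. Members called numbered 17 in hypothalamus against cortex on SC, but 6 on unscaled TPM. They numbered 12 in hypothalamus against hippocampus on SC, but 6 without the filter, 5 on unscaled TPM and 7 to 10 with 1 library left out (7 without hippocampus SC 1, 2 or 4). They numbered 5 in hypothalamus against cortex on HFHS, but 9 under DESeq2, 3 without the filter, 3 on unscaled TPM, 8 on scaled TPM, 10 without the short libraries and 2 to 8 with 1 left out. They numbered 10 in hippocampus against cortex on HFHS, but 5 without the filter and 6 to 12 with 1 left out (6 without cortex HFHS 4 or 5). They numbered 3 in hypothalamus against hippocampus on HFHS, but 5 under DESeq2, 5 on scaled TPM and 7 with the replicate block. For diet, DESeq2 called 2 members in hypothalamus, 1 in hippocampus and 1 in cortex, beside 89, 14 and 476 of all genes. In cortex the replicate block called 1 (Ctsl, beside 412 genes), the fit without short libraries 1 (Ctsl, beside 515), and fits with 1 left out 0 to 1 (Lamp1 without HFHS 1). The interaction of hypothalamus and cortex gave 2 members with the block (Ctsl and Lamp1), 1 without the short libraries and 0 to 1 with 1 left out (1 without cortex HFHS 6). Outside the 2 pairings given under processing, same-numbered libraries had a lowest correlation between -0.196 and 0.0466, and the block is given as a setting only. In cortex HFHS and SC, the pairing with the lowest of -0.196, 5 of 6 pairs were nevertheless over 0.1, the highest at 0.833. There 4 HFHS libraries correlated most with the SC library of their own number. In the 2 pairings given under processing the block ended the call of Ctsd in hypothalamus against cortex on SC (-0.54, adjusted p = 0.0677) and changed no other call of a member described. The cause of these changes was not tested.

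For the Lamp2 shares, the LAMP-2A difference of hippocampus and cortex on SC was 14.2 points on estimated counts (adjusted p = 0.0455, exact permutation) and 14.9 without the short libraries (adjusted p = 0.0179). The LAMP-2C difference of hypothalamus and hippocampus on HFHS was -1.42 on estimated counts (adjusted p = 0.026), and that of hippocampus and cortex on HFHS 1.22 without the short libraries (adjusted p = 0.0758). With 1 library left out, hypothalamus against cortex on HFHS ranged from -0.61 to 3.59 for LAMP-2A, -4.22 to 0.50 for LAMP-2B and -0.00187 to 0.589 for LAMP-2C, and on SC from -1.85 to 3.64 for LAMP-2A. Hippocampus against cortex ranged from 1.19 to 1.78 for LAMP-2C on HFHS, and on SC from 9.88 to 14.9 for LAMP-2A and -17.2 to -12.4 for LAMP-2B. Hypothalamus against hippocampus ranged from -1.40 to -0.96 for LAMP-2C on HFHS, and on SC from -13.3 to -9.07 for LAMP-2A and 9.45 to 13.6 for LAMP-2B. Calls were lost in 8 of 11 fits for LAMP-2A and for LAMP-2B in hypothalamus against hippocampus on SC, in 10 of 11 for LAMP-2B in hippocampus against cortex on SC and in 9 of 13 for LAMP-2C in hippocampus against cortex on HFHS.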
